A study of Mus musculus with 4 samples.

Results

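The 8 genes described here belong to signalling by interleukin 6 (IL6) and related cytokines. They are the receptor chains Il6ra, Il6st, Lifr and Osmr, the kinases Jak1 and Jak2, the transcription factor Stat3 and the inhibitor Socs3. They were taken by symbol, and all 8 were found among the 24063 gene symbols of the deposited tables. The 4 libraries hold poly-A RNA labelled as mouse liver tumour, raised by hydrodynamic tail vein delivery, a high-volume injection that carries DNA mainly into hepatocytes. All 4 tumours carry the label MYC;PMEPA1 overexpression in C57BL/6 mice (C57BL6/J in the titles), without treatment, and the labels name them 1, 5, 9 and 10. They also state 8 to 10 passages, so whether the RNA came from tumour tissue or from passaged cells is not clear, and the libraries are called tumours here after their labels. The labels give neither the age of the animals nor whether the tumours came from separate animals or clones. The delivering vector, its promoter and the species of the delivered genes are likewise not stated in the labels. There is 1 group and no control, so the results are levels in each tumour and differences between tumours, which may in part be technical.

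IL6 binds the receptor chain encoded by Il6ra, and the pair recruits gp130, the signalling chain encoded by Il6st. Leukaemia inhibitory factor (LIF) signals through LIFR paired with gp130, and oncostatin M through OSMR paired with gp130. The receptors activate JAK kinases, which phosphorylate STAT3, and STAT3 then induces acute phase genes in hepatocytes together with SOCS3, which blocks gp130 and the JAKs in a feedback loop. Haptoglobin (Hp) and serum amyloid A2 (Saa2) are acute phase products of the liver.

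The libraries held 41547938 to 51939623 counts over genes. Values are given as CPM, counts scaled to a common library size, after TMM scaling, and levels of different genes are compared only as CPM per kilobase of transcript. Hepatocyte markers were present in all 4 tumours: each of 10 such genes had a mean above 1 CPM, and their summed level was 11370, 12530, 17200 and 34890 CPM in tumours 1, 5, 9 and 10. Mouse Myc had 4.86 to 8.58 CPM and Pmepa1 0.922 to 7.29 CPM, levels that without a control say nothing about the delivered copies. In bulk samples, fewer cells of a type and less RNA per cell cannot be told apart.

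Per kilobase, Stat3 and Jak1 were the most abundant of the 8 and Osmr the least. Stat3 had 31.1 ± 8.0 CPM per kilobase and Jak1 17.9 ± 5.0 (SD, n = 4 tumours each). The shared chain Il6st followed with 6.85 ± 1.0, then Il6ra with 5.81 ± 4.40, Jak2 with 3.58 ± 1.16 and Socs3 with 3.55 ± 1.02. Lifr had 2.18 ± 1.86 and Osmr 0.847 ± 0.729 CPM per kilobase. Of the 7 pairs of neighbours in this order, only Jak1 and Il6st had ranges that did not overlap, with Jak1 higher in 4 of 4 tumours. The other 6 pairs overlapped, and their order changed in at least 1 tumour. The exact two-sided sign-flip test gave p = 0.125 for Jak1 against Il6st, the smallest value that n = 4 allows. For the other pairs this exact test gave p = 0.25 to 1.

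**Figure D1:**
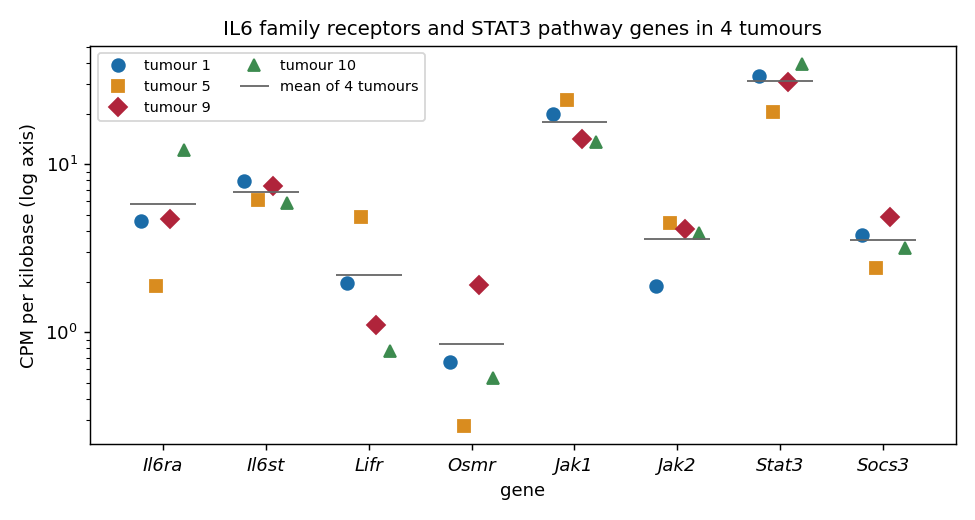
Level of each of the 8 genes in CPM per kilobase (log axis), 1 point per tumour, with the 4-tumour mean as a line. Stat3 and Jak1 lie highest, Il6st varies least after TMM scaling, and Il6ra, Lifr and Osmr spread over more than 6-fold with a different tumour on top in each.

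All 8 genes differed between tumours beyond counting error in a Poisson heterogeneity test with Benjamini-Hochberg adjustment over 13129 genes with a mean of at least 1 CPM. This held for 98.7% of those genes, so the count says nothing particular about the 8. A range of at least 1 log2 unit between the highest and the lowest tumour was seen for Il6ra, Lifr, Osmr and Jak2, 4 of the 8, and for 49.6% of all genes tested. The median range was 1.12 log2 units over the 8 genes and 0.99 over all genes tested. Each tumour was also compared with the other 3 by edgeR's quasi-likelihood test, with p-values adjusted jointly over the genes and the 4 comparisons. In that test 0 of the 8 genes passed in any tumour, as did 0% of all genes, and DESeq2 called 0 of the 8 in each tumour, beside 0.221%, 0.358%, 2.52% and 10.4% of all genes in tumours 1, 5, 9 and 10. The smallest edgeR adjusted p among the 8 was 0.725, 0.545, 0.616 and 0.548 in tumours 1, 5, 9 and 10. At an unadjusted p of 0.05 edgeR gave 0 of them in tumour 1, Lifr in tumour 5, Osmr in tumour 9 and Il6ra in tumour 10. The same threshold was passed by 0.716%, 0.922%, 5.66% and 22.1% of all genes in tumours 1, 5, 9 and 10. The differences between tumours are therefore larger than counting error, but none passed a test against the spread among the other tumours. Of the 8 genes, 1, 3, 2 and 2 were highest in tumours 1, 5, 9 and 10, as were 21.4%, 21.2%, 21.6% and 35.8% of all genes. The lowest value of the 8 lay in these tumours for 1, 4, 0 and 3 genes, beside 21.8%, 20.3%, 25.5% and 32.4% of all genes.

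The specific IL6 receptor chain was highest in tumour 10. Il6ra (NM_010559, GRCm38 chromosome 3, 89864059 to 89913196, minus strand) measured 15.2 CPM in tumour 1, 6.26 in tumour 5, 15.7 in tumour 9 and 40.5 in tumour 10. Tumour 10 thus lay 6.47-fold above tumour 5, while tumours 1 and 9 were alike within their 95% counting intervals. These values rest on 268 to 1362 counts. In the edgeR quasi-likelihood test, Il6ra lay 1.71 ± 0.55 log2 units (estimate ± SE) higher in tumour 10 than in the other 3, with an adjusted p of 0.548. Tumour 10 was also the highest for 9 of 10 hepatocyte markers, against 35.8% of all genes tested (8 of 10 against 20.2% with total counts alone), and the part of hepatocyte content in the Il6ra level was not tested. Il6ra overlaps the antisense gene Gm42809, and it is not stated whether the counting used strand.

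The shared signalling chain was nearly even across tumours after TMM scaling. Il6st (NM_010560, chromosome 13, 112464070 to 112510086, plus strand) measured 43.3 CPM in tumour 1, 33.5 in tumour 5, 40.6 in tumour 9 and 32.02 in tumour 10, a range of 0.43 log2 units. The higher tumours, 1 and 9, overlapped in their counting intervals, and so did the lower ones, 5 and 10. With total counts alone in place of TMM the range was 0.89 log2 units. The ratio of Il6ra to Il6st, per kilobase, was 0.574, 0.305 and 0.631 in tumours 1, 5 and 9, and 2.06 in tumour 10. Tumour 10 was the only one of the 4 in which the binding chain exceeded gp130.

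The LIF receptor was highest in tumour 5 and lowest in tumour 10. Lifr (NM_013584, chromosome 15, 7090614 to 7197489, plus strand) measured 19.0 CPM in tumour 1, 47.1 in tumour 5, 10.7 in tumour 9 and 7.46 in tumour 10, from 1086, 2015, 572 and 251 counts. No pair of neighbouring tumours overlapped in its counting interval, and tumour 5 lay 6.30-fold above tumour 10. The edgeR quasi-likelihood estimate for tumour 5 against the other 3 was 1.93 ± 0.60 log2 units (SE), with an adjusted p of 0.545. The summed level of bile duct and progenitor markers was also highest in tumour 5, with 79.4 CPM against 51.2, 15.5 and 13.9 CPM in tumours 1, 9 and 10. Of the 5 such genes above 1 CPM, 3 were highest in tumour 5, beside 21.2% of all genes. Spp1 and Sox9 were highest in tumour 1 instead, as was Krt7, whose mean was below 1 CPM. None of the 6 listed was at 0 in any tumour, but Krt19 and Krt7 had only 1 and 2 counts in tumour 10. The part of these markers in the Lifr level was not tested. The transcript row used for Lifr is 9663 bases long. Over 13129 genes, the deviation of a gene from its 4-tumour mean correlated with transcript length: Spearman's rho was 0.23 for tumour 1, 0.14 for tumour 5, 0.06 for tumour 9 and -0.27 for tumour 10, as a description across genes that share a library, and its part in the low value of tumour 10 was not tested.

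Lifr is annotated with separate starts, and its transcripts did not keep a fixed ratio. The longer row, NM_013584, is paired by GENCODE with a transcript of 1092 codons that starts at position 7140542 and has 3392 exon bases, fewer than the row. The shorter row, NM_001113386, starts upstream at 7129572, ends at 7185343 and has 719 codons from the same first coding base. A secreted LIF receptor without the membrane anchor is known from mice, and the shorter reading frame lacks the 3′ part of the longer one. The shorter row had 1.90, 9.81, 0.707 and 1.49 CPM per kilobase in tumours 1, 5, 9 and 10, and the longer row 1.96, 4.87, 1.10 and 0.772. The ratio of shorter to longer was 0.967 and 0.642 in tumours 1 and 9, and 2.01 and 1.92 in tumours 5 and 10. Tumours 5 and 10, the highest and the lowest in Lifr, thus had the higher share of the shorter row. In the GENCODE models, 2174 of the 2844 exon bases of the shorter transcript also lie in the longer one, so the same reads can be counted on both rows. The 250 bases before each start are printed to compare the promoters, from RefSeq on GRCm38.p6, plus strand, with CG dinucleotides in capitals.
Lifr upstream start, chr15:7129322-7129571: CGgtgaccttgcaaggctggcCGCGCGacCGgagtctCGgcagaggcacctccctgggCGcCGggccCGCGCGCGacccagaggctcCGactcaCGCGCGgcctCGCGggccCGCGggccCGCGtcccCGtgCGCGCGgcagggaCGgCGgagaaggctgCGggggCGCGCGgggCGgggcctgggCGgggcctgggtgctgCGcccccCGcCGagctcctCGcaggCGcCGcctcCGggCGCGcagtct
Lifr downstream start, chr15:7140292-7140541: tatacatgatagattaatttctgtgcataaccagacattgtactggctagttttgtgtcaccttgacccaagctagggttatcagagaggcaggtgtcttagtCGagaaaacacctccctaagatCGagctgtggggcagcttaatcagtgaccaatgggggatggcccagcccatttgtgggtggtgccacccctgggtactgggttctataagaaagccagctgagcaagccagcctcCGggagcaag
The upstream promoter holds 43 CG dinucleotides and is 82.4% G and C, while the downstream one holds 3 and is 50.8% G and C.

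**Figure D2:**
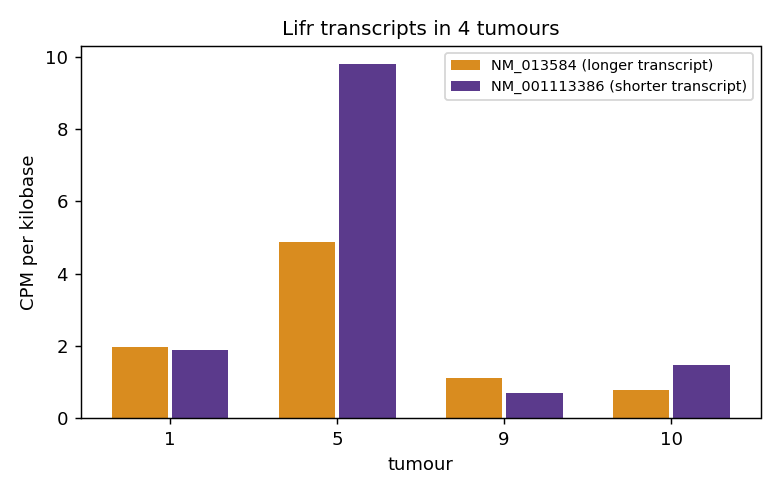
CPM per kilobase of the longer and the shorter Lifr transcript row in each tumour (bars, 1 library each, no error bar). The shorter row reaches 9.81 in tumour 5, and it exceeds the longer row 2.01-fold there and 1.92-fold in tumour 10.

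The oncostatin M receptor was highest in tumour 9. Osmr (NM_011019, chromosome 15, 6813577 to 6874969, minus strand) measured 3.22 CPM in tumour 1, 1.33 in tumour 5, 9.25 in tumour 9 and 2.59 in tumour 10. Its counts were 184, 57, 497 and 87, and tumours 1 and 10 overlapped in their counting intervals. Tumour 9 lay 6.95-fold above tumour 5, and the edgeR quasi-likelihood estimate for tumour 9 against the other 3 was 1.96 ± 0.68 log2 units (SE), with an adjusted p of 0.616. Set against each other per kilobase, Lifr exceeded Osmr 17.7-fold in tumour 5, 2.95-fold in tumour 1 and 1.44-fold in tumour 10. In tumour 9 the order was the reverse, with a ratio of 0.576. Most markers of myeloid cells were highest in the same tumour. All 10 neutrophil markers peaked in tumour 9, where their sum was 517 CPM against 11.7 to 25.7 CPM elsewhere, and 7 of 9 macrophage markers above 1 CPM did so, with sums of 947 against 213 to 394 CPM. Of all genes, 21.6% were highest in tumour 9. In the macrophage and Kupffer cell list, Clec4f, Marco and Timd4 were highest in tumour 1 instead. They had 20.7, 8.67 and 1.80 CPM there and 0.745, 2.68 and 0.316 CPM in tumour 9. All 7 red cell markers were highest in tumour 9 too, with a sum of 1023 against 109 to 147 CPM. In that list Hba-a1 and Hba-a2 had identical counts in every tumour, 257 CPM each in tumour 9. They are thus not independent markers, and the sum holds their value under both symbols. Likewise 5 of 7 endothelial markers above 1 CPM were highest in tumour 9, with 118 against 82.5 to 86.8 CPM. Stellate cell and fibroblast markers summed to 504 CPM in tumour 9 and to 412, 291 and 112 CPM in tumours 1, 5 and 10. No marker of these lists was at 0 in any tumour, and their part in the Osmr level was not tested.

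The kinases differed less than Il6ra, Lifr and Osmr but more than Il6st. Jak1 (NM_146145, chromosome 4, 101152367 to 101265282, minus strand), the main kinase bound to gp130, measured 106 CPM in tumour 1, 127 in tumour 5, 74.4 in tumour 9 and 71.7 in tumour 10, with tumours 9 and 10 alike within counting error. It overlaps Raver2 on the other strand. Jak2 (NM_001048177, chromosome 19, 29251828 to 29313080, plus strand), which also serves the growth hormone and erythropoietin receptors, had 9.30 CPM in tumour 1 and 22.1, 20.5 and 19.3 CPM in tumours 5, 9 and 10. Tumour 1 stood apart from the other 3, of which the neighbours in order overlapped in their counting intervals. The Jak2 range was 1.24 log2 units over the 4 tumours and 0.19 without tumour 1. The edgeR quasi-likelihood test put tumour 1 at -1.15 ± 0.47 log2 units (SE) against the others, with an adjusted p of 0.725. Jak1 exceeded Jak2 per kilobase 10.7-fold in tumour 1 and 3.41- to 5.41-fold elsewhere.

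Stat3 and Socs3 were both lowest in tumour 5 but peaked in different tumours. Stat3 (NM_213659, chromosome 11, 100885098 to 100939540, minus strand) measured 150 CPM in tumour 1, 91.6 in tumour 5, 139 in tumour 9 and 177 in tumour 10, and no neighbouring tumours overlapped in counting intervals. Its highest value moved from tumour 10 to tumour 1 when total counts replaced TMM, while tumour 5 stayed lowest. Stat3 lay at percentile 80.8, 69.7, 79.9 and 79.7 of the expressed genes by CPM per kilobase in tumours 1, 5, 9 and 10. Stat3 overlaps Stat5a on the other strand. Socs3 (NM_007707, chromosome 11, 117966079 to 117970047, minus strand) measured 10.3 CPM in tumour 1, 6.58 in tumour 5, 13.1 in tumour 9 and 8.59 in tumour 10, a range of 0.99 log2 units. Tumours 1 and 10 overlapped in their counting intervals, and tumour 9 was the highest. The ratio of Socs3 to Stat3 per kilobase was 0.113, 0.119 and 0.155 in tumours 1, 5 and 9 and 0.0799 in tumour 10. Tumour 10, with the most Stat3 after TMM scaling, thus had the least Socs3 per Stat3. Il6ra, Osmr, Stat3 and Socs3, 4 of the 8 genes, were lowest in tumour 5, under TMM, DESeq2 size factors and total counts alike. Of all genes tested, 20.3% were lowest there under TMM.

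STAT3 binds palindromes of the form TTCNNNGAA. This motif, which reads the same on both strands, was sought in the 250 bases before each RefSeq start on GRCm38.p6, and all 8 genes had an entry, Lifr with 2. Socs3 was the only one of the 8 with a match. That is 1 of 9 promoters (11.1%), against 7.02% of 32851 promoters in all. No promoter of the 8 held the narrower motif TTCCNGGAA, which 0.913% of all promoters held. The match, TTCTTAGAA, spans bases 154 to 146 before the RefSeq start at 117969366. The GENCODE transcript paired with the Socs3 row starts further downstream, at 117969186, and the bases between these starts were not searched. The match is in capitals here, since Socs3 is the feedback target of the pathway. The sequence is given on the minus strand, 5′ to 3′.
Socs3, chr11:117969367-117969616: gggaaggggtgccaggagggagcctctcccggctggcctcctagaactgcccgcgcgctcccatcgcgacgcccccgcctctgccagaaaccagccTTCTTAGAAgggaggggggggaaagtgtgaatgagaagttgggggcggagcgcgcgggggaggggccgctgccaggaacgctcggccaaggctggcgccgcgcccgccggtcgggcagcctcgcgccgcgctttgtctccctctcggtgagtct
Among 20 of the 24 acute phase genes with an entry, 6 of 23 promoters (26.1%) held the motif TTCNNNGAA: those of Fga, Fgb, Apcs, Hamp, Itih4 and Steap4. Among growth, survival and early response targets of STAT3, 3 of 21 promoters (14.3%) held it, those of Bcl6 and Irf1. A match describes the letters only, and a promoter without one may be bound elsewhere.

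Hp and Saa2 spanned a far wider range than the receptors. For Hp (NM_017370) the level was 685, 71.5, 124 and 5814 CPM in tumours 1, 5, 9 and 10, an 81.3-fold spread. Saa2 (NM_011314) had 10.96 CPM in tumour 1 and 17.5 CPM in tumour 10. In tumours 5 and 9 it had 0.257 and 0.149 CPM, from 11 and 8 counts, with 95% exact Poisson intervals of 0.128 to 0.460 and 0.0643 to 0.293 CPM that cover counting error only. Reads of Saa2 may be shared with its close paralog Saa1. Tumours 1 and 10 were thus high in both genes and tumours 5 and 9 low in both. No receptor chain showed that split. Il6ra was alike within counting error in tumours 1 and 9, on opposite sides of it.

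Set against Hp per kilobase in the same tumour, the receptor chains were lowest in tumour 10. The log2 ratio of Il6ra to Hp was -6.80, -4.82, -4.29 and -8.48 in tumours 1, 5, 9 and 10. For Il6st it was -6.00, -3.11, -3.63 and -9.52. Lifr moved furthest, with -8.02, -3.45, -6.39 and -12.44, and Osmr had -9.56, -7.55, -5.59 and -12.96. Expressed as folds, Hp exceeded Il6st 8.66-fold in tumour 5 and 736-fold in tumour 10. Il6ra had the narrowest range of the 4 chains against Hp, 4.19 log2 units, and Lifr the widest, 8.99. Against Hp and Saa2 alike, each chain had lower ratios in tumours 1 and 10 than in tumours 5 and 9. This shared order is mostly that of Hp and Saa2 themselves. They ranged over 6.3 and 6.5 log2 units, and the chains over 0.43 (Il6st) to 2.76 (Osmr). The ratios to Saa2, unlike those to Hp, changed sign between tumours. Il6ra, Il6st and Lifr were below Saa2 in tumours 1 and 10 and above it in tumours 5 and 9, with log2 ratios of -1.98, 1.94, 3.91 and -1.25 for Il6ra in tumours 1, 5, 9 and 10. Il6st had -1.18, 3.65, 4.57 and -2.29, and Lifr -3.20, 3.31, 1.82 and -5.21. Osmr exceeded Saa2 in tumour 9 alone, with -4.74, -0.79, 2.61 and -5.73. With 4 tumours no correlation across samples was computed.

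**Figure D3:**
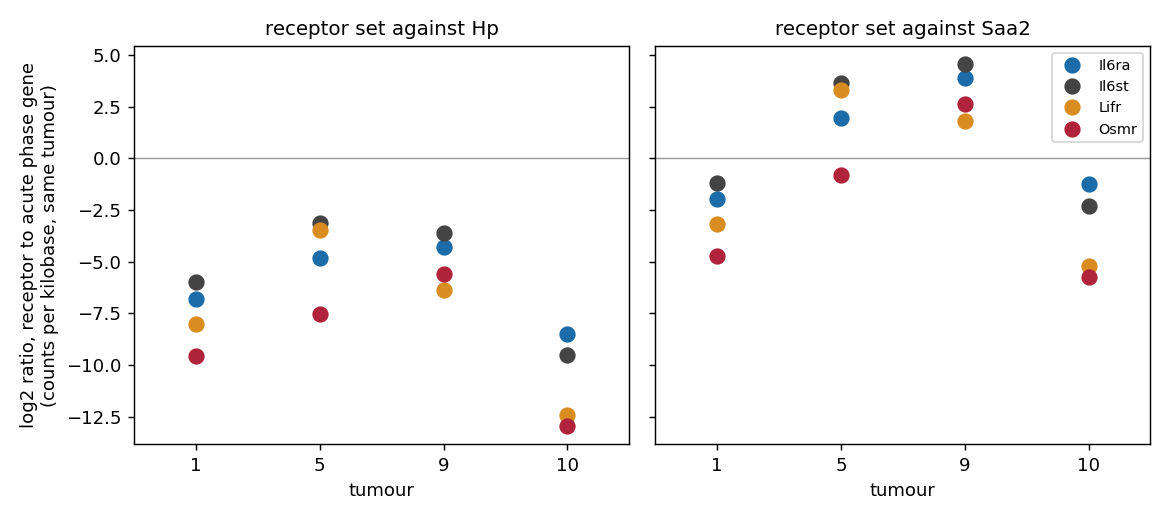
Log2 ratio of each receptor chain to Hp (left) and to Saa2 (right), per kilobase, in each tumour, 1 point per chain. All ratios to Hp lie below 0 and are lowest in tumour 10, while ratios to Saa2 are above 0 in tumours 5 and 9 for all chains but Osmr in tumour 5. The order of the tumours mostly reflects Hp and Saa2, which varied more than the chains.

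The ligands were scarce. Of 11 listed cytokines, 4 reached a mean of 1 CPM: Ctf1, Cntf, Clcf1 and Lif. Cardiotrophin 1 (Ctf1) had 3.25, 3.76, 2.16 and 2.50 CPM in tumours 1, 5, 9 and 10, and Cntf 3.02, 2.59, 1.56 and 1.96 CPM. Both were lowest in tumour 9 under TMM but not with total counts alone. Clcf1, a ligand of the CNTF receptor, was highest there, with 3.29 CPM in tumour 9 and 0.978, 1.47 and 0.624 CPM in tumours 1, 5 and 10. Lif had 1.29, 0.467, 1.60 and 1.13 CPM, from 74, 20, 86 and 38 counts, and was lowest in tumour 5, where its receptor was highest. Il6 itself had 2, 1, 10 and 3 counts in tumours 1, 5, 9 and 10, at most 0.186 CPM. Il11 had 9, 9, 7 and 1 counts. Oncostatin M (Osm), a product of myeloid cells, had 94 counts or 1.75 CPM in tumour 9 and 3, 0 and 10 counts in tumours 1, 5 and 10, where the 0 allows up to 0.0701 CPM. Osm and its receptor were thus both highest in tumour 9, the tumour with the most neutrophil and macrophage marker RNA. This peak was not particular to Osm. Il6, Lif, Clcf1, Il27, Ebi3 and Il12a were highest there too, beside 21.6% of all genes, while Ctf1, Cntf and Il11 were not and Il31 had no counts. Il6ra, unlike Il6, was highest in tumour 10. Cytokines made outside the tumour are not seen in these data.

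Among the other receptor chains, 4 of 9 reached a mean of 1 CPM. Il11ra1, the specific chain for IL11, had 45.7 CPM in tumour 10 and 9.63, 10.2 and 13.1 CPM in tumours 1, 5 and 9, so that tumour 10 was highest for this specific chain as for Il6ra. Crlf2, a receptor chain for the cytokine TSLP, had 6.99, 6.21, 8.95 and 4.40 CPM. Csf3r, the receptor of granulocyte colony stimulating factor and itself in the neutrophil list, had 19.2 CPM in tumour 9 and 1.26 to 2.77 CPM elsewhere. Within the other JAKs and STATs, 6 of 7 genes above 1 CPM were highest in tumour 10, against 35.8% of all genes. With total counts alone it was 3 of 7, against 20.2%. Stat5b, which carries growth hormone signals in the liver, had 116, 97.6, 82.4 and 133 CPM in tumours 1, 5, 9 and 10. Stat6, the factor of IL4 signalling, had 41.1, 42.2, 25.8 and 61.6 CPM, and Stat2, an interferon factor, had 40.9, 26.7, 56.99 and 56.94. Jak3 varied most, with 19.2, 7.73, 18.6 and 36.2 CPM.

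The brakes on the pathway peaked in different tumours. Of 15 SOCS, phosphatase and PIAS genes above 1 CPM, 5 were highest in tumour 1, 3 in tumour 5, 5 in tumour 9 and 2 in tumour 10. Of all genes, 21.4%, 21.2%, 21.6% and 35.8% were highest there. With total counts alone the genes numbered 7, 2, 6 and 0, beside 29.6%, 20.7%, 29.5% and 20.2% of all genes. The phosphatase Ptpn11, which docks on gp130, was nearly even, with 158, 151, 118 and 133 CPM in tumours 1, 5, 9 and 10. Pias2 had 76.6, 60.2, 75.8 and 51.5 CPM, and Ptpn2, a phosphatase of JAKs and STATs, 52.1, 46.5, 39.2 and 58.5. Socs5 spanned the widest range, with 14.4, 7.12 and 9.73 CPM in tumours 1, 5 and 9, but 1.84 in tumour 10. Of the 10 adaptors, kinases and sheddases, 5 were lowest in tumour 10, against 32.4% of all genes. With total counts alone it was 7 of 10, against 53.1% of all genes. Gab1, an adaptor that links gp130 to PI3 kinase and RAS, had 20.7, 14.9 and 15.5 CPM in tumours 1, 5 and 9, but 1.16 in tumour 10. The adaptor Grb2 was highest there under TMM, with 103 CPM against 71.1 to 97.0 CPM elsewhere, and Erbin, listed as Erbb2ip, had 96.7, 115, 126 and 183 CPM in tumours 1, 5, 9 and 10. Adam10, a protease that sheds receptors, had 97.2, 101.2, 80.9 and 52.9 CPM in tumours 1, 5, 9 and 10.

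Genes known to respond to STAT3 had unlike patterns. All 24 acute phase genes were above 1 CPM, and 17 of them were highest in tumour 10 and 16 lowest in tumour 5. Of all genes, 35.8% were highest in tumour 10 and 20.3% lowest in tumour 5. With total counts alone 14 and 17 of the 24 were so placed, beside 20.2% and 18.2% of all genes. Their median deviation from the 4-tumour mean was 0.32, -1.32, -0.15 and 1.21 log2 units in tumours 1, 5, 9 and 10, beside -0.01, 0.00, -0.04 and 0.02 over all genes. The median range of the 24 genes was 3.03 log2 units. The fibrinogen chains Fgb and Fga spread less than Hp, with 917 to 3019 and 798 to 2215 CPM. Hepcidin (Hamp), the iron hormone, went against the list, with 48.1, 10.7 and 39.2 CPM in tumours 1, 5 and 9, but 1.22 in tumour 10. Il1rn, an inhibitor of IL1 signalling, was the other gene of the list lowest in tumour 10, with 4.53, 4.53, 13.4 and 3.63 CPM in tumours 1, 5, 9 and 10. Both were singled out after their values were seen. The acute phase and hepatocyte lists peaked in the same tumour, and the part of hepatocyte content was not tested.

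Growth, survival and early response targets had medians nearer 0 than the acute phase genes in tumours 1, 5 and 10. Of 17 genes above 1 CPM, 3, 1, 7 and 6 were highest in tumours 1, 5, 9 and 10, beside 21.4%, 21.2%, 21.6% and 35.8% of all genes. Their median deviations were -0.25, -0.06, 0.21 and 0.28 log2 units. With total counts alone 3, 1, 9 and 4 were highest there, beside 29.6%, 20.7%, 29.5% and 20.2% of all genes, and the median in tumour 10 was -0.04. Mcl1, a survival protein, had 179, 202, 233 and 271 CPM, and Birc5, the mitotic protein survivin, was nearly even at 105 to 129 CPM. Cebpb, which acts with STAT3 on acute phase promoters, had 246 CPM in tumour 10 and 74.8, 93.7 and 104 CPM in tumours 1, 5 and 9. Cyclin D1 (Ccnd1) varied most, with 14.9, 72.0, 4.0 and 110 CPM in tumours 1, 5, 9 and 10. In all, the 7 pathway lists held 81 genes above 1 CPM besides the 8, and all 81 differed between tumours beyond counting error, beside 98.7% of all genes.

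**Figure D4:**
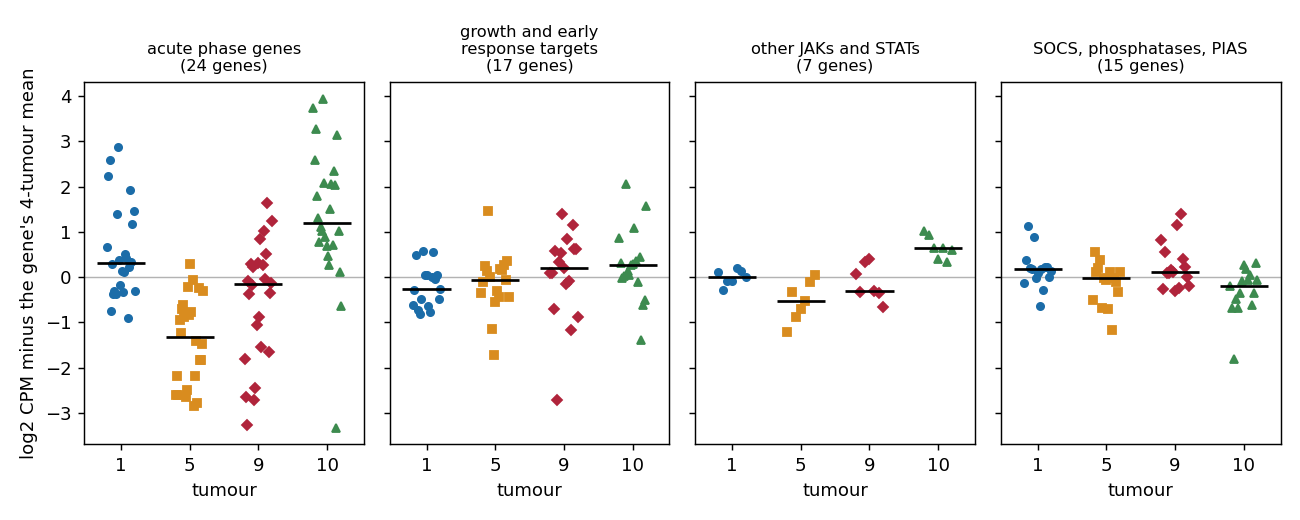
Deviation of each gene's log2 CPM from its 4-tumour mean, 1 point per gene, for 4 lists of the pathway, with the list median as a line in each tumour. Acute phase genes have medians of -1.32 in tumour 5 and 1.21 in tumour 10, while the medians of the SOCS, phosphatase and PIAS genes lie between -0.18 and 0.19 and single genes lie further out, as Socs5 at -1.81 in tumour 10.

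For the 4 members with a range of at least 1 log2 unit, the genes most like them across the 4 tumours were found by the root mean square difference of centred log2 CPM. Il6ra was closest to Lama5, a laminin chain, at 0.06 log2 units, then to Wfs1 and Hyal1 at 0.12 and 0.14. Lifr was closest to Ptar1, Ssx2ip and Casr, at 0.04, 0.10 and 0.11. For Osmr the closest were Clec4a1, a lectin receptor of myeloid cells, at 0.03, then Adamts5, a matrix protease, at 0.10 and A630001G21Rik at 0.11. Jak2 was closest to Smagp, Map4k2 and Mir6909, at 0.03, 0.06 and 0.08. Within 0.25 log2 units there were 14 genes for Il6ra, 14 for Lifr, 53 for Osmr and 94 for Jak2. With 4 tumours, such likeness is a description of these libraries.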

How the data were processed

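Poly-A RNA was made into TruSeq libraries, per the labels' protocols. The submitters' processing notes list FastQC 0.11.8 and GRCm38. Which aligner, counter and strand setting were used is not given in the sources used here. The authors' deposited counts are whole reads per RefSeq transcript, 33984 rows in each library. The deposited FPKM, so named per the file headers, served only to recover transcript lengths. For 100% of the 27807 rows with counts the length was a whole number, to a tolerance of 0.01 bases. TPM values as deposited, so named per the file headers, were used only to check the unit.

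A gene was represented by its row with the highest mean count, since a read can count on several rows. TMM scaling and the quasi-likelihood test came from edgeR 4.0.16 in R 4.3.3, with DESeq2 1.42.0 as an alternative. Log2 CPM used a prior count of 2, and genes with a mean of at least 1 CPM were tested. Counting error was tested with a Poisson chi-square over the 4 libraries, and 1 tumour against the other 3 with edgeR, both adjusted by Benjamini-Hochberg at a threshold of 0.05. In the latter the lone tumour is assumed to vary like the others, and p-values measure only the spread between these samples. The SE beside an edgeR estimate was derived as the size of the estimate divided by the square root of its quasi-likelihood F statistic. It is not an SE that edgeR reports. Both tests were checked on simulated counts. For the edgeR test the simulated spread was a fixed setting, not estimated from these tumours. That check therefore does not show how much the test can detect here. TMM factors were 1.10, 1.03, 1.10 and 0.802 in tumours 1, 5, 9 and 10. Total counts alone moved the median gene by 0.14, 0.04, 0.13 and -0.32 log2 units there. Coordinates are from GENCODE M21 on GRCm38 and promoters from RefSeq on GRCm38.p6. The genes, the 15 lists (166 entries) and the tests were chosen with earlier results of these data known. Erbin and Adgre1 were found under the older symbols Erbb2ip and Emr1. Named genes are the 8, Hp, Saa2, Il6, Il11, Lif and Osm, and of each pathway list the 3 genes highest in mean CPM plus the 1 that varied most in log2 CPM. To these come the 3 genes nearest in pattern to each of the 8 with a log2 range of at least 1.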

Additional observations from a re-analysis of the deposited data

Results flagged for a closer look

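In each of 43 sets of 4 values, on the log2 scale, the gap of the highest or lowest tumour to its nearest neighbour was divided by the range and compared with Dixon's 95% limit of 0.829. By chance about 1 in 20 sets passes it, and 2 did. Jak2 in tumour 1, at 3.22 log2 CPM, lay apart from the other tumours with a gap of 0.845 of the range. Gab1 in tumour 10, at 0.27 log2 CPM, lay apart with a gap of 0.884 of the range.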

How the results depend on the processing

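No paired analysis was possible because all 4 tumours form 1 group. The 8 genes remained beyond counting error under every scaling, row, filter, noise and leave-one-out alternative. The 1 against 3 tests were not run with added noise, nor in edgeR with DESeq2 size factors. In the settings that were run, 0 of the 8 passed them. With 1 tumour left out, 77 to 81 pathway genes and 12282 to 12694 of all genes differed beyond counting error. Over all genes, the 1 against 3 counts for tumours 1, 5, 9 and 10 were 0 in the edgeR test and 29, 47, 331 and 1371 with DESeq2. Without the filter they were 2 in tumour 1, 6 in tumour 9 and 123 in tumour 10, and adjusted for each tumour alone 230 in tumour 10. Leaving out 1 tumour gave 0 to 2 genes for tumour 1, 0 to 1 for tumour 5, 0 to 28 for tumour 9 (28 without tumour 10) and 0 to 411 for tumour 10 (411 without tumour 9). The cause was not tested. Ranges rested on single tumours: without tumour 5 the log2 range was 1.41 for Il6ra, 1.34 for Lifr and 0.35 for Stat3, without tumour 10 it was 1.32 for Il6ra, and without tumour 9 it was 1.25 for Osmr. All 128 ratios to Hp and Saa2 recomputed under other scalings, rows or prior counts kept their sign and moved by less than 1 SD over the tumours. A ratio within a tumour cancels the scaling, so other scalings could act only through the prior count. Summing rows could change the counts of Lifr alone. Most of these ratios were therefore bound to stay nearly the same. Depth limits Saa2 in tumours 5 and 9, Il6, Il11 and Osm.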
